A study of Mus musculus with 24 samples.

Results

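The 8 genes described here are Trmt61a, Dcaf12l1, 2900005J15Rik, 4933415A04Rik, 3110082I17Rik, Edaradd, B930041F14Rik and Efr3b, out of 43280 gene symbols in the count table. They were chosen by their own values in this experiment, as genes with lower RNA in NRG1-treated than in PBS-treated mice in each of 4 sorted populations of small-intestinal crypt cells. Their difference between NRG1 and PBS is therefore given as a description, without p-values. RNA was sequenced from 6 male C57BL/6 mice that carry the Lgr5-EGFP reporter, described as littermates. Of these, 3 received 7.5 µg of neuregulin 1 (NRG1, a ligand of the ErbB3 and ErbB4 receptors) intraperitoneally every 12 h over 5 days, and 3 received PBS on the same schedule. Intestines were collected on day 6. In each treatment, 2 mice were 15 weeks old and 1 was 11 weeks old. With these 2 ages, whether all 6 mice came from 1 litter is not known here. Crypt cells free of CD31, CD45 and propidium iodide were sorted into Lgr5high CD24low cells (High, labelled crypt base columnar stem cells), Lgr5med CD24low cells (Med, immediate progenitors), Lgr5low CD24low cells (Low, subsequent progenitors) and Lgr5neg CD24neg cells (Neg, differentiated cells). Each mouse gave 1 library per population, so the 8 groups (High, Med, Low and Neg of NRG1 mice, and High, Med, Low and Neg of PBS mice) hold 3 libraries each.

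Several of these genes have known roles. Trmt61a encodes the catalytic subunit of the methyltransferase that, with Trmt6, places 1-methyladenosine at position 58 of tRNAs. Dcaf12l1 is a WD-repeat protein related to DCAF12, a substrate receptor of the CUL4-DDB1 ubiquitin ligase. Edaradd is the adaptor that links the ectodysplasin receptor EDAR to NF-kB signalling, best known from hair, tooth and gland development. Efr3b, like its paralogue Efr3a, anchors the phosphatidylinositol 4-kinase PI4KA at the plasma membrane, together with TTC7 and FAM126 proteins. B930041F14Rik is an older symbol of Fndc10, a gene for a protein with a fibronectin type III domain. 2900005J15Rik is annotated as a processed transcript without a coding sequence, and 4933415A04Rik and 3110082I17Rik are annotated as protein coding.

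The genes lie on 6 chromosomes of GRCm38. Trmt61a spans chr12:111678105-111683902 on the plus strand, and Efr3b chr12:3962554-4038915 on the minus strand. 2900005J15Rik spans chr5:25100983-25110109 on the plus strand, and 3110082I17Rik chr5:139359739-139460527 on the minus strand. Dcaf12l1 lies at chrX:44786570-44790197 (minus), 4933415A04Rik at chr11:43587040-43589048 (plus), Edaradd at chr13:12472632-12520438 (minus) and B930041F14Rik at chr4:155694342-155696481 (plus). 3110082I17Rik overlaps Gper1, Gpr146, C130050O18Rik, Gm26285 and Mir339, and Efr3b overlaps Gm48001. The strand setting of the authors' counting is not given in the sources used here, so reads of overlapping genes on opposite strands cannot be told apart.

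RefSeq start windows of GRCm38.p6 were matched for 6 of the 8 genes. The 250 bases before the start are shown for 4 of them, chosen because their levels run in opposite directions along the sorted populations: Trmt61a and 3110082I17Rik were highest in the Lgr5-positive gates, and Edaradd and Efr3b in Neg. They come from chr12:111677855-111678104 (plus), chr5:139460535-139460784 (minus), chr13:12520451-12520700 (minus) and chr12:4038916-4039165 (minus), each read 5′ to 3′ in the direction of the gene. Capitals mark every match, on either strand, to 8 motifs. These were the E2F motifs TTTCCCGC and TTTGGCGC, the E-box written as CACGTG, and the core of ETS factor sites written as CCGGAAG. They also included the SP1 motif GGGCGG, the CCAAT box, the half-site of a cAMP response element written as TGACGT, and the TATA box written as TATAAA.
Trmt61a: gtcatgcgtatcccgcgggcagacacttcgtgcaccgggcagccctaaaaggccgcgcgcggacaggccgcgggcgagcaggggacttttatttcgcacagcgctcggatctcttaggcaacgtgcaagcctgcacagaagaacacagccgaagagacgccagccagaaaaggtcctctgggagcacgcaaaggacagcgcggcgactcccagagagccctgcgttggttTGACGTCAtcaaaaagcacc
3110082I17Rik: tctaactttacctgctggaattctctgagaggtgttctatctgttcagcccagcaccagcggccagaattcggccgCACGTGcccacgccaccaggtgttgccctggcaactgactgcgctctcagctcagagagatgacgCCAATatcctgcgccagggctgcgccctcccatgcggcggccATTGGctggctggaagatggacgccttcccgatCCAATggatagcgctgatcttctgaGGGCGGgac
Edaradd: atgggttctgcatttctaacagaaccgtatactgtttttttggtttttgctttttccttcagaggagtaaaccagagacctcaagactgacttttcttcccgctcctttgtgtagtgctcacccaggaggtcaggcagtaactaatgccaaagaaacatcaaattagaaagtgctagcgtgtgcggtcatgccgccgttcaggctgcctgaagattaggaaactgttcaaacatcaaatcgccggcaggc
Efr3b: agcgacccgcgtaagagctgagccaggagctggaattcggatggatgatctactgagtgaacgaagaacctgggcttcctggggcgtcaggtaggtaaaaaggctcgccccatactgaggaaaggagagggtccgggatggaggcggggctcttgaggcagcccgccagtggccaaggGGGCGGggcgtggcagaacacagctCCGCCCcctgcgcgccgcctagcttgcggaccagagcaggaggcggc
The Trmt61a window holds TGACGT on both strands, as overlapping matches that begin 20 and 18 bases before the start and together read TGACGTCA. Of 27018 RefSeq promoters, 6.6% hold TGACGT, and the share with the longer TGACGTCA was not counted. The 3110082I17Rik window holds CACGTG, found in 6.0% of promoters, and 3 matches to CCAAT, found in 34.5%. GGGCGG occurs in 4 of the 6 windows matched (Dcaf12l1, 2900005J15Rik, 3110082I17Rik and Efr3b) and in 32.9% of all promoters. CCAAT occurs in 2 of the 6, 3110082I17Rik and 2900005J15Rik. None of the 6 windows holds either E2F motif (0.9% and 0.4% of promoters), CCGGAAG (7.1%) or TATAAA (13%). The Edaradd window holds none of the 8 motifs and has a GC content of 46.0%, below the promoter median of 52.0%, while the Trmt61a window has 61.6% GC and the Efr3b window 65.2%. The window of 2900005J15Rik, at 75.6% GC with 31 CpG dinucleotides, is richer in GC than 96.6% of promoters. A match describes letters in these windows and not a bound site.

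Library totals ranged from 11176264 to 23343499 counts. Of these, 37.6% to 62.4% came from mitochondrial ribosomal RNA (mt-Rnr1 and mt-Rnr2), which left 6192378 to 12549810 counts for other genes. Levels are given as CPM (counts relative to the library total, scaled by TMM over the 24 libraries), and 3 counts were worth 0.112 to 0.247 CPM. Stem cell markers followed the labels of the gates: the summed level of 7 stem cell markers had medians of 2830 CPM in NRG1 and 3230 CPM in PBS libraries of High, and of 55.0 CPM in NRG1 and 73.2 CPM in PBS libraries of Neg. Enterocyte markers were highest in Neg. Goblet markers had their highest medians in Low, at 15800 CPM in NRG1 and 22400 CPM in PBS libraries, and Med followed at 6130 and 13900 CPM. The stem cell markers of Low had medians of 634 CPM in NRG1 and 364 CPM in PBS libraries. Paneth and enteroendocrine markers also had their highest medians in Low, so that gate holds RNA of secretory cells. Some other measures also moved with treatment. The ratio of mt-Rnr1 to mt-Rnr2 was 38.0 to 54.2 counts per 100 in NRG1 libraries and 18.1 to 42.9 in PBS libraries, with 1 PBS library, replicate 3 of High, inside the NRG1 range. Of 8 Paneth cell markers, 3 were lower with NRG1 in High (summed level 1270 to 2060 CPM in NRG1 and 2140 to 3720 CPM in PBS libraries). Of 12 enterocyte markers, 4 were lower with NRG1 in Med (1040 to 1680 CPM in NRG1 and 1950 to 2390 CPM in PBS libraries). Of 5 cycling markers in High, 3 were higher and 2 lower with NRG1 (2030 to 2670 CPM in NRG1 and 1560 to 1740 CPM in PBS libraries), and in Med 1 was higher and 1 lower. Of the 7 stem cell markers, 1 was higher in Med, 1 was higher in Low (560 to 917 CPM in NRG1 and 354 to 399 CPM in PBS libraries) and 1 was lower in Neg (49.3 to 57.1 CPM in NRG1 and 71.9 to 78.8 CPM in PBS libraries). The 7 goblet markers of Neg summed to 1230 to 3810 CPM in NRG1 and 4850 to 6860 CPM in PBS libraries, with 0 called. Of 8 enteroendocrine markers 1 was lower in High, and of 9 lymphocyte markers 1 was lower in Med. The lymphocyte markers summed to 54.3 to 433 CPM in NRG1 and 90.6 to 196 CPM in PBS libraries of Neg, and to at most 5.31 CPM in the other gates. Endothelial and mesenchymal markers summed to at most 2.70 CPM in any library. The part of these measures in the results below was not tested. In sorted bulk RNA, fewer cells of a type and less RNA per cell cannot be told apart.

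All 8 genes had their 3 NRG1 libraries below their 3 PBS libraries in every population, which is 32 of 32 pairs of groups. Of these pairs, 29 passed the filter on low counts. Among all genes that passed the filter on low counts, the share with such a gap was 13.4% in High, 15.7% in Med, 9.22% in Low and 7.82% in Neg. The calls by edgeR's quasi-likelihood test (Benjamini-Hochberg adjusted p under 0.05 over all genes tested) were fewer. The label of these genes as lowered in every population holds for all 8 by the absence of overlap but for 2 by the call. For Dcaf12l1 in Neg that absence rests on 5 reads, with both groups at the floor. For Edaradd in High the closest libraries had 8 counts with NRG1 and 9 with PBS. In High, 7 genes passed the filter on low counts and 7 were called lower, where 4.15% of 13322 genes were. In Med, 6 of 7 that passed were called lower (5.79% of all genes). In Low, 5 of 8 were called (0.3%), and in Neg 2 of 7 (0.176%). With the replicate number as a block, 8 of 8, 7 of 8, 6 of 8 and 4 of 7 were called lower in High, Med, Low and Neg. Of all genes, 702 of 13901, 1314 of 13982, 384 of 13990 and 512 of 12548 were called lower with it. In either direction the shares were 8.86%, 16.1%, 3.91% and 6.3%. The genes chosen on this contrast had to differ, so nothing is read from these counts. The same holds for the calls of single genes given below, which only describe where the fits placed them. Without the block, Edaradd was below the filter in High, and Dcaf12l1 in Med and Neg.

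**Figure D1:**
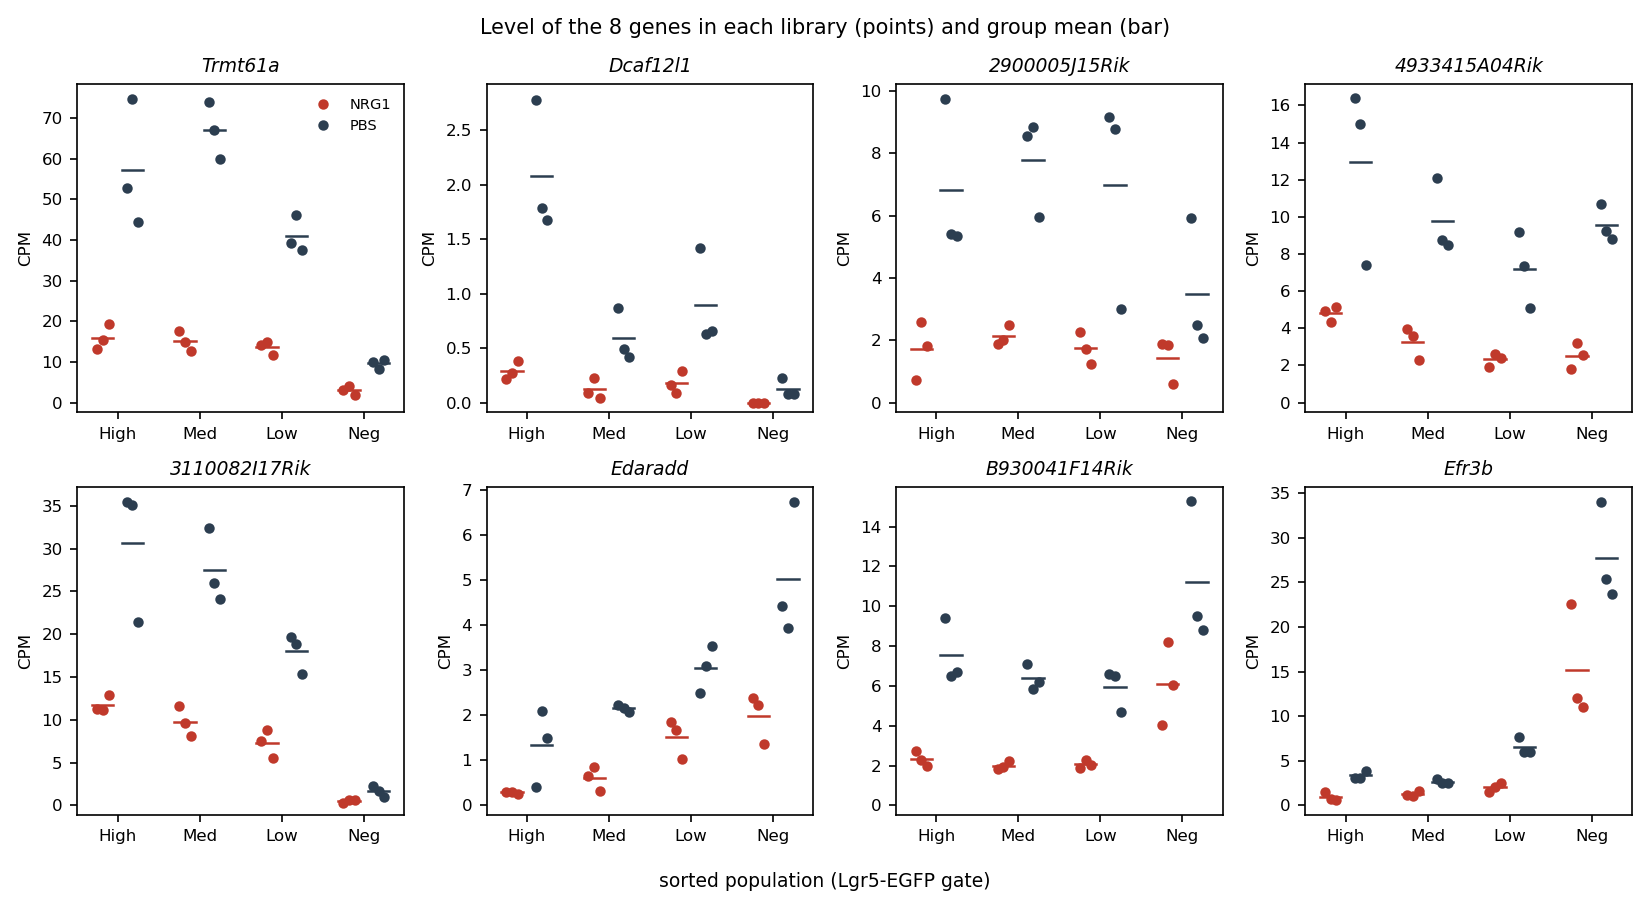
CPM of each gene (vertical axis, linear, separate for each gene) in each of the 24 libraries, by sorted population (horizontal axis), with NRG1 libraries in red left of PBS libraries in dark blue; points are libraries and bars are means of 3. In every panel and population the 3 red points lie below the 3 blue points.

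Trmt61a, the tRNA methyltransferase subunit, had the highest level per kilobase of exon of the 8 in the Lgr5-positive gates. In High it had 13.1, 15.5 and 19.3 CPM in NRG1 libraries, against 52.9, 74.6 and 44.3 CPM in PBS libraries. In Med it had 17.5, 14.8 and 12.8 CPM in NRG1 libraries, against 73.9, 67.1 and 59.9 CPM in PBS libraries. The highest NRG1 library of these 2 gates thus stood below 20 CPM and the lowest PBS library above 40 CPM. In Low the gene had 14.2, 15.0 and 11.6 CPM in NRG1 libraries, against 39.3, 46.2 and 37.6 CPM in PBS libraries. In Neg the values were 3.04, 4.08 and 1.89 CPM in NRG1 libraries, against 10.0, 8.29 and 10.6 CPM in PBS libraries, so the gap between treatments was present at an overall lower level. The log2 change was -1.83 (SE 0.198) in High, -2.14 (SE 0.144) in Med, -1.58 (SE 0.163) in Low and -1.66 (SE 0.312) in Neg, which is 3.00-fold to 4.4-fold lower with NRG1. Trmt61a was called lower in all 4 populations.

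Dcaf12l1, the relative of the CUL4-DDB1 substrate receptor, was measured by few reads. In High it had 5, 7 and 9 counts in NRG1 libraries (0.213 to 0.384 CPM), against 61, 47 and 37 counts in PBS libraries (1.68 to 2.78 CPM). This was the lowest of all log2 changes of the 8 genes, -2.82 (SE 0.472), or 7.04-fold lower with NRG1. In Low it had 2, 2 and 4 counts with NRG1 (0.0862 to 0.291 CPM), against 34, 14 and 14 with PBS (0.627 to 1.42 CPM). NRG1 replicates 1 and 3 of Low were shallower than its PBS libraries. The log2 change there was -2.37 (SE 0.706, not called), and -3.07 in the 15-week mice alone. In Med it had 2, 6 and 1 counts in NRG1 libraries, against 19, 12 and 9 in PBS libraries. In Neg it had 0, 0 and 0 counts in NRG1 libraries, against 3, 1 and 1 in PBS libraries. A count of 0 allows up to 3 counts per library, so both groups of Neg were at the floor and no fold is given, and the gap there rests on 5 reads.

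2900005J15Rik, the noncoding transcript, varied more between libraries of a group. In High it had 0.723, 2.58 and 1.83 CPM in NRG1 libraries, against 9.75, 5.4 and 5.35 CPM in PBS libraries. The NRG1 libraries lay between 0.604 and 2.58 CPM in all 4 populations and the PBS libraries between 2.06 and 9.75 CPM, so the ranges of both treatments overlapped once populations were mixed. The log2 change was -1.97 (SE 0.407) in High, -1.85 (SE 0.249) in Med, -2.0 (SE 0.416) in Low and -1.25 (SE 0.532) in Neg, where it was -0.65 without PBS replicate 1. It was called in High and Med, and in Low with the replicate block. The differences between populations were not tested. In Low the NRG1 libraries had 2.27, 1.72 and 1.24 CPM, against 9.16, 8.78 and 2.99 CPM in PBS libraries. PBS replicate 3, the 11-week mouse, was the low one of its group.

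4933415A04Rik, a single-exon gene annotated as protein coding, was the other gene called lower in all 4 populations. It had 4.93, 4.34 and 5.16 CPM in NRG1 libraries of High, against 16.4, 15.0 and 7.39 CPM in PBS libraries. In Neg it had 1.81, 3.22 and 2.57 CPM in NRG1 libraries, against 10.7, 9.25 and 8.80 CPM in PBS libraries. In Neg the PBS values were close to each other and well clear of the NRG1 values, while in High the third PBS library stood nearer to the NRG1 group. The log2 change was -1.41 (SE 0.255) in High, -1.56 (SE 0.243) in Med, -1.61 (SE 0.288) in Low and -1.90 (SE 0.293) in Neg. The gene starts 0.043 kb past the annotated end of Ccnjl on the same strand, and Ccnjl is described with the neighbours below.

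3110082I17Rik, the gene that spans the G protein-coupled receptor genes Gper1 and Gpr146, had 11.3, 11.1 and 12.9 CPM in NRG1 libraries of High, against 35.4, 35.1 and 21.4 CPM in PBS libraries. In Low it had 7.53, 8.75 and 5.59 CPM with NRG1, against 19.7, 18.9 and 15.4 CPM with PBS. The NRG1 values of High were close together, and those of Low spread more. In Neg it was nearly absent, at 3, 9 and 8 counts in NRG1 libraries, against 31, 21 and 12 counts in PBS libraries. The log2 change was -1.37 (SE 0.180) in High, -1.47 (SE 0.171) in Med and -1.29 (SE 0.206) in Low, called in these 3, and -1.75 (SE 0.607) in Neg, not called.

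Edaradd, the EDAR adaptor, ran near the floor in High, with 7, 8 and 6 counts in NRG1 libraries, against 9, 55 and 33 counts in PBS libraries. The lowest PBS library there, replicate 1, exceeded the highest NRG1 library by 1 count. In Med it had 0.643, 0.857 and 0.323 CPM with NRG1, against 2.23, 2.16 and 2.07 CPM with PBS (log2 change -1.78, SE 0.415, called). In Neg, where it was most abundant, it had 2.38, 2.23 and 1.36 CPM with NRG1, against 4.42, 3.94 and 6.74 CPM with PBS (log2 change -1.32, SE 0.376, not called). In Low the gap was narrowest on the log2 scale among the populations tested, at -0.98 (SE 0.350), also not called. With the replicate block the gene was called lower in Med and Neg but not in Low. In High it was below the filter without the block, and passed the filter and was called lower with it. The replicate numbers were not taken to pair samples in High, and the NRG1 libraries there were near the floor. No size is therefore given, and nothing is read from that call.

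B930041F14Rik (Fndc10) had 2.72, 2.27 and 1.96 CPM in NRG1 libraries of High, against 9.39, 6.51 and 6.71 CPM in PBS libraries. Its log2 change was -1.68 (SE 0.238) in High, -1.65 (SE 0.239) in Med and -1.5 (SE 0.275) in Low, called in all 3. In Neg it had 4.02, 8.22 and 6.04 CPM in NRG1 libraries, against 15.3, 9.49 and 8.80 CPM in PBS libraries, a log2 change of -0.86 (SE 0.302), not called. There the highest NRG1 library came within 1 CPM of the lowest PBS library.

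Efr3b, the membrane anchor of PI4KA, had 1.53, 0.769 and 0.640 CPM in NRG1 libraries of High, against 3.10, 3.08 and 3.90 CPM in PBS libraries (log2 change -1.76, SE 0.360, called). In Low it had 1.46, 2.03 and 2.54 CPM with NRG1, against 7.66, 5.96 and 5.93 CPM with PBS (log2 change -1.68, SE 0.284, called). In Neg, where the gene was far more abundant, it had 22.6, 12.0 and 11.0 CPM with NRG1, against 34.0, 25.4 and 23.7 CPM with PBS (log2 change -0.86, SE 0.266). The first NRG1 library of Neg stood just under the lowest PBS library. The Med and Neg changes were not called without the block, and were called lower with it.

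**Figure D2:**
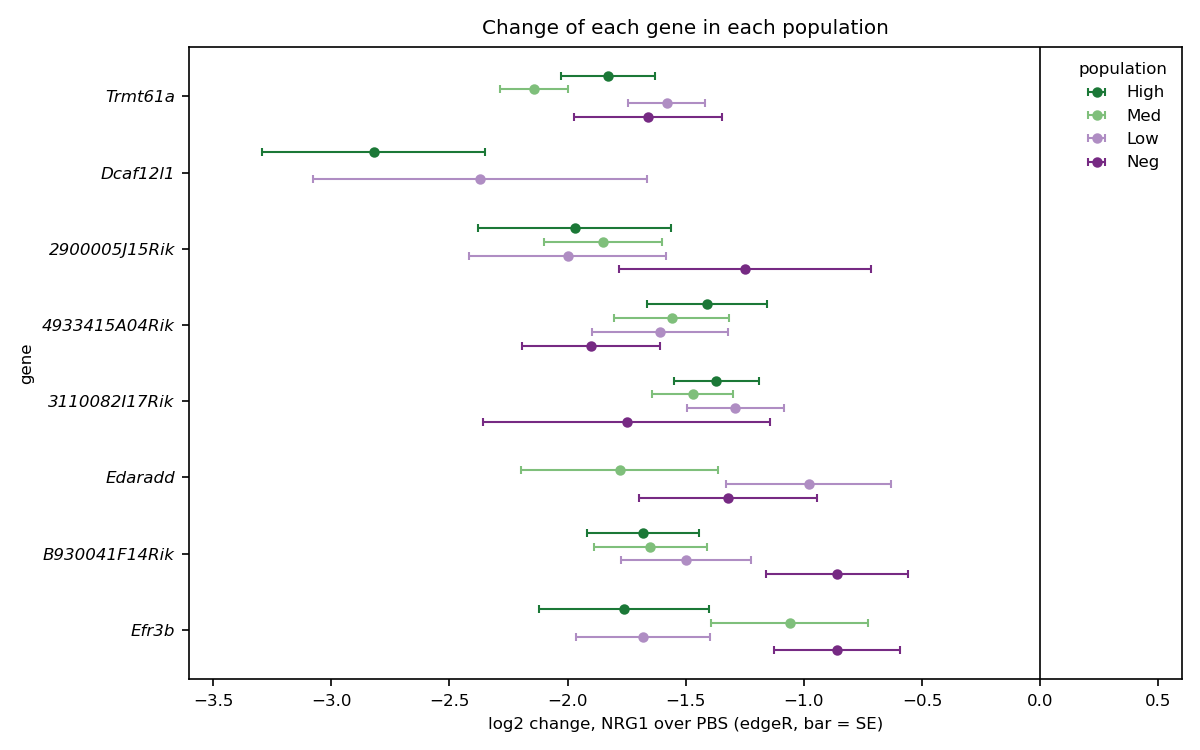
log2 change of each gene, NRG1 over PBS (horizontal axis), in each population (colours, from High at the top of each row to Neg at the bottom), from edgeR on 3 NRG1 and 3 PBS libraries; bars are standard errors and combinations below the filter on low counts are absent. All 29 values lie below 0, between -2.82 and -0.86.

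The median log2 change over the genes that passed the filter was -1.76 in High, -1.65 in Med, -1.60 in Low and -1.32 in Neg, beside medians over all genes of 0.010, 0.009, -0.001 and 0.013. The same mice gave all 4 populations, so the populations are not independent repeats. Because the groups do not overlap, any subset of the mice shows the same direction, and only sizes are given by age. The log2 difference was -2.78 to -0.62 in mice of 15 weeks and -2.43 to -0.51 in mice of 11 weeks, of which there was 1 per treatment.

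Across the series, 5 of 11188 genes tested in all 4 populations were called lower in all 4 (0.0447%), and 0 were called higher in all 4. Besides Trmt61a and 4933415A04Rik these were Prr5, an mTORC2-associated protein, D17Wsu104e, and F11r, the junctional adhesion molecule JAM-A. In every population Trmt61a and 4933415A04Rik had lower log2 changes than these 3: Prr5 ranged from -1.40 to -0.95, D17Wsu104e from -1.21 to -0.84 and F11r from -1.10 to -0.80. A wider set of 138 genes tested in all 4 populations had no overlap between NRG1 and PBS libraries in any of them, always lower with NRG1.

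Per kilobase of exon, the order of the levels depended on the population. In PBS libraries of High it ran from Trmt61a (23.5 ± 6.41 CPM per kb, SD, n = 3) through 3110082I17Rik (10.6 ± 2.78), 4933415A04Rik (6.43 ± 2.41), B930041F14Rik (3.52 ± 0.751) and 2900005J15Rik (2.33 ± 0.863) to Dcaf12l1 (0.590 ± 0.172), Efr3b (0.324 ± 0.0450) and Edaradd (0.2 ± 0.128). Neighbours in this order overlapped within 1 SD from 3110082I17Rik to 2900005J15Rik, and so did Efr3b and Edaradd. In PBS libraries of Neg the order was B930041F14Rik (5.24 ± 1.68), 4933415A04Rik (4.77 ± 0.495), Trmt61a (3.96 ± 0.497), Efr3b (2.67 ± 0.531), 2900005J15Rik (1.19 ± 0.721), Edaradd (0.755 ± 0.225), 3110082I17Rik (0.577 ± 0.231) and Dcaf12l1 (0.0366 ± 0.0234). There the first 3 were within their spread of each other, and so were 2900005J15Rik, Edaradd and 3110082I17Rik.

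The populations of PBS mice were compared with each other, which the choice of the genes did not use. Between High and Neg, 6 of the 8 genes differed (67.4% of 14203 genes did). Trmt61a was higher in High (57.3 ± 15.6 CPM in High and 9.64 ± 1.21 CPM in Neg, SD, n = 3; log2 difference 2.56, SE 0.186, edgeR adjusted p = 3.79e-10). 3110082I17Rik was higher by a log2 difference of 4.17 (SE 0.271, edgeR adjusted p = 8.8e-11), with 30.6 ± 8.02 CPM in High and 1.67 ± 0.667 CPM in Neg. Dcaf12l1 was called higher in High, with 145 counts over the 3 libraries of High and 5 over those of Neg. It is counted among the 6, but it passed the filter through the other gates and Neg was at the floor. No size or p-value is therefore given, and nothing is read from its call. The other 3 went the opposite way. Efr3b had 3.36 ± 0.467 CPM in High and 27.7 ± 5.51 CPM in Neg (log2 difference -3.05, SE 0.209, edgeR adjusted p = 1.56e-10). Edaradd had 1.33 ± 0.853 CPM in High and 5.03 ± 1.5 CPM in Neg (log2 difference -1.91, SE 0.414, edgeR adjusted p = 0.000442). B930041F14Rik differed least, at 7.54 ± 1.61 CPM in High and 11.2 ± 3.60 CPM in Neg (log2 difference -0.59, SE 0.239, edgeR adjusted p = 0.0361). Its call ended without Neg replicate 1 (log2 difference -0.27, adjusted p = 0.339), High replicate 2 (adjusted p = 0.131) or High replicate 3 (adjusted p = 0.118). 4933415A04Rik (log2 difference 0.42, SE 0.271, edgeR adjusted p = 0.178) was not called, but without High replicate 3 it was (0.71, adjusted p = 0.0166). 2900005J15Rik (0.95, SE 0.454, edgeR adjusted p = 0.0792) was called with the mouse as a block (1.02, adjusted p = 0.00421) and without Neg replicate 1 (1.60, adjusted p = 0.00821).

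Between Low and Neg, 5 genes differed (55.8% of all genes). Trmt61a was higher in Low by a log2 difference of 2.08 (SE 0.185, edgeR adjusted p = 1.73e-08), and 3110082I17Rik by 3.41 (SE 0.271, adjusted p = 4.52e-09). Dcaf12l1 was called higher in Low, with 62 counts in Low and the same 5 in Neg, again with no size or p-value given. Efr3b was lower in Low than in Neg by -2.10 (SE 0.198, edgeR adjusted p = 3.71e-08) and B930041F14Rik by -0.93 (SE 0.242, adjusted p = 0.00287). 2900005J15Rik, at 0.98 (edgeR adjusted p = 0.0811), was called with the mouse as a block (0.99, adjusted p = 0.00647), without Neg replicate 1 (1.63, adjusted p = 0.00952) and without Low replicate 3 (1.35, adjusted p = 0.00612). Between Med and Low, 2 genes differed (7.59% of all genes): Efr3b was lower in Med (log2 difference -1.30, SE 0.210, edgeR adjusted p = 0.000875) and Trmt61a higher (0.70, SE 0.169, adjusted p = 0.0134). The Trmt61a call ended without Low replicate 1 (adjusted p = 0.0516), Low replicate 3 (adjusted p = 0.0635) or Med replicate 1 (adjusted p = 0.0780). With the mouse as a block 3110082I17Rik was also called between Med and Low (0.61, adjusted p = 0.0131, against 0.0878 without it). Between High and Med, 1 gene differed (9.17% of all genes): Dcaf12l1 was higher in High (2.08 ± 0.607 CPM in High and 0.592 ± 0.238 CPM in Med; log2 difference 1.81, SE 0.511, edgeR adjusted p = 0.0302). That call ended without High replicate 1 (adjusted p = 0.173) or 3 (adjusted p = 0.0608), or Med replicate 2 (adjusted p = 0.136) or 3 (adjusted p = 0.148). Dcaf12l1 had only 19, 12 and 9 counts in the PBS libraries of Med. It was below the filter in the Med fit of NRG1 against PBS, so the size of this difference is poorly known.

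In NRG1 mice, 6 of the 7 genes tested differed between High and Neg (65.5% of 14307 genes). Trmt61a (log2 difference 2.35, SE 0.246) and 4933415A04Rik (0.86, SE 0.292) were higher in High, and Efr3b (-4.00, SE 0.378) and B930041F14Rik (-1.45, SE 0.296) were lower. Their edgeR adjusted p-values ranged from 5.72e-08 for Efr3b to 0.0156 for 4933415A04Rik. The call of 4933415A04Rik ended without Neg replicate 1 (0.68, adjusted p = 0.0650). 3110082I17Rik was called higher in High and Edaradd lower. Edaradd had only 7, 8 and 6 counts in High, and 3110082I17Rik only 3, 9 and 8 counts in Neg. Both are counted among the 6, but they passed the filter through gates with higher counts. No size or p-value is therefore given for them, and nothing is read from their calls. 2900005J15Rik did not pass the test (0.19, SE 0.482, edgeR adjusted p = 0.739), and Dcaf12l1 was below the filter on low counts. Whether these differences themselves changed with treatment was not tested. These genes, lower with NRG1 in each gate, thus include some highest in High and some highest in Neg.

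**Figure D3:**
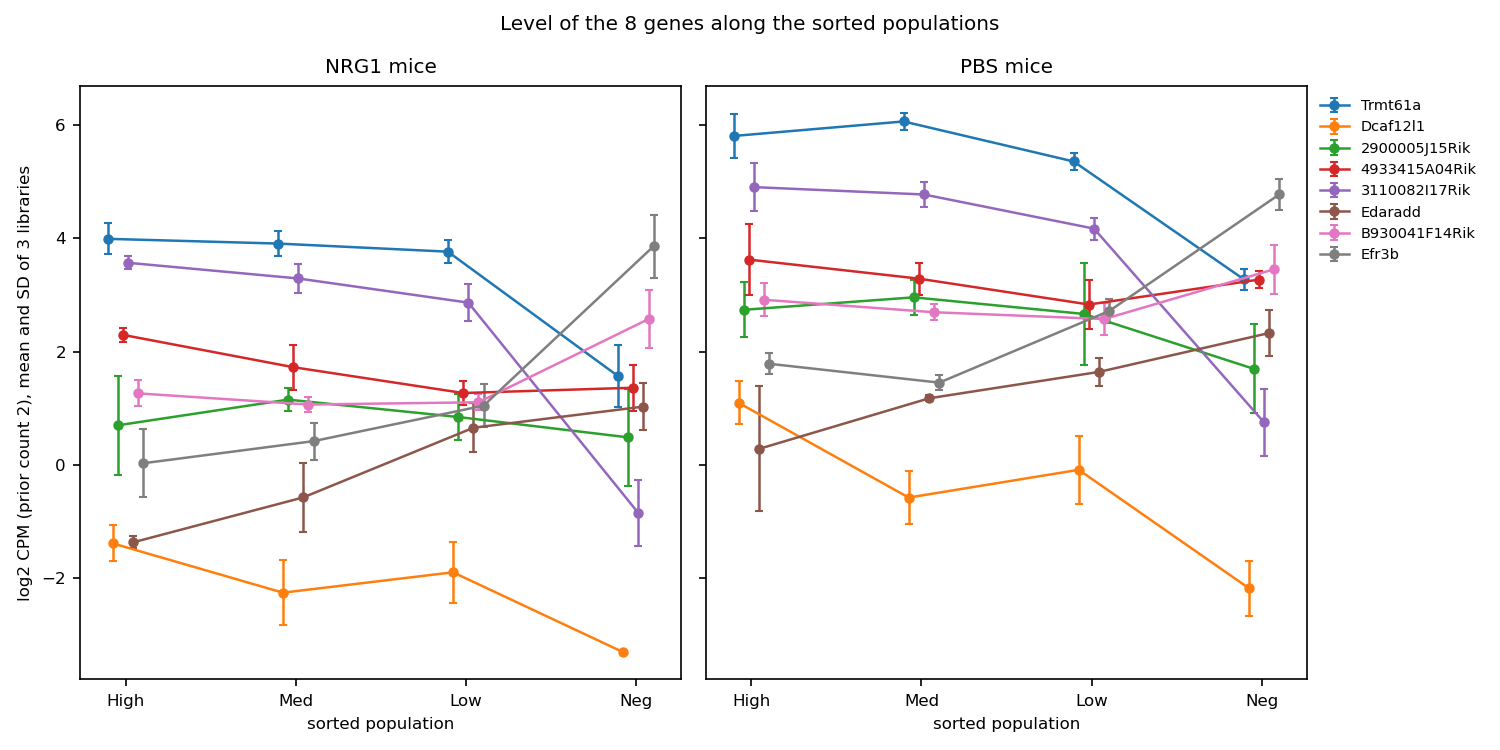
Mean log2 CPM (prior count 2) of each gene along the sorted populations from High to Neg, in NRG1 mice (left) and PBS mice (right); bars are the SD of 3 libraries. Trmt61a and 3110082I17Rik are higher in High than in Neg and Efr3b, Edaradd and B930041F14Rik lower in both panels, with each gene lower in the NRG1 panel.

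Over the 24 libraries, the log2 CPM of the 28 pairs of these genes had Pearson r from -0.65 (3110082I17Rik and Efr3b) to 0.92 (Trmt61a and 3110082I17Rik), with a median of 0.51. After removal of the group means the range was -0.43 to 0.74 and the median 0.175. The libraries share mice, gates and treatment, so these values are a description. By a fixed rule, the 6 genes most like the mean of the 8 among 9514 genes whose log2 CPM averaged 2 or more were Cep170b (r = 0.927), the ligase scaffold Cul4a (0.896), the mitochondrial import factor Timm8a1 (0.895), Lonrf1 (0.887) and the ribosomal protein genes Rps27 (0.880) and Rps25 (0.878). They were picked for likeness to a pattern that contains the treatment difference, so their own log2 changes are a description. In High, Med, Low and Neg these were -0.57, -0.93, -0.62 and -0.69 for Cep170b, -0.44, -0.48, -0.41 and -0.36 for Cul4a, and -1.46, -1.09, -1.19 and -0.51 for Timm8a1. They were -1.09, -1.20, -0.80 and -0.73 for Lonrf1, -0.93, -1.04, -0.83 and -0.41 for Rps27, and -1.02, -1.10, -0.73 and -0.66 for Rps25. Ribosomal protein genes have near-identical copies elsewhere in the genome, so the counts of Rps27 and Rps25 are uncertain. The closest single genes were Ltv1 to Trmt61a (r = 0.968), Atad3a to Dcaf12l1 (0.865), Rps27 to 2900005J15Rik (0.919), Pacs2 to 4933415A04Rik (0.910), Phka1 to 3110082I17Rik (0.977), Sfn to Edaradd (0.919), Prr5 to B930041F14Rik (0.894) and 1700019G17Rik to Efr3b (0.958).

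The pathways around the 4 genes with known partners were followed in 104 listed genes. In High, of 99 tested, 1 was higher (3.18% of all genes) and 5 were lower (4.15%). In Med, of 98 tested, 5 were higher (3.76% of all genes) and 5 lower (5.79%). In Low and Neg, 0 of 99 and 0 of 97 were called by edgeR (all genes: 0.143% higher and 0.3% lower in Low, 0.151% higher and 0.176% lower in Neg), with 7 and 9 at an unadjusted p under 0.05 and 1 and 0 called by DESeq2. For the unadjusted p and for DESeq2 the shares of all genes were not counted, so nothing is read from those numbers. With the replicate block, 17 of 99 were called in Med (16.1% of all genes), 2 of 99 in Low (3.91%) and 4 of 99 in Neg (6.3%). The median log2 changes of these genes were 0.04 in High, 0.11 in Med, 0.03 in Low and 0.03 in Neg. Those of all genes were 0.010, 0.009, -0.001 and 0.013. By list, the highest medians were 0.21 for tRNA methylation in Neg and 0.16 for ectodysplasin signalling in Med. The lowest was -0.04 for the CUL4-DDB1 ligase in Neg. These medians were not tested.

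Among 32 tRNA methylation genes, Alkbh1, which removes the 1-methyladenosine that the Trmt61a enzyme places, was the 1 gene called in High and in Med without the replicate block. It had 41.3 ± 4.16 CPM with NRG1 and 69.8 ± 14 CPM with PBS in High (SD, n = 3; log2 change -0.74, SE 0.144, edgeR adjusted p = 0.00572). In Med it had 37.7 ± 1.66 CPM with NRG1 and 68.8 ± 1.67 CPM with PBS (log2 change -0.85, SE 0.111, edgeR adjusted p = 0.000626). In Low and Neg its log2 changes of -0.54 and -0.66 were not called (edgeR adjusted p = 0.185 and 0.179), and with the replicate block both were (-0.55, adjusted p = 0.0219, and -0.65, adjusted p = 0.0157). Trmt6, the non-catalytic partner of Trmt61a, had log2 changes of -0.30 in High, -0.45 in Med, -0.26 in Low and -0.54 in Neg and was not called, except in Med with the block (-0.44, edgeR adjusted p = 0.0383). In Med it had 16.2 ± 0.761 CPM with NRG1 and 22.5 ± 3.30 CPM with PBS. With the block Trmt1l was also called higher in Med (0.38, edgeR adjusted p = 0.0481) and Alkbh3 lower (-0.61, adjusted p = 0.0208). In Neg with the block, 2 further genes of the list were called, Trmt10a (1.66, edgeR adjusted p = 0.0322) and Thumpd3 (0.52, adjusted p = 0.0418), both higher with NRG1.

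Of 21 listed genes of the PI4KA complex and phosphoinositide kinases, Ttc7, which encodes a scaffold of the complex that Efr3b anchors, was lower with NRG1 in High and Med. It had 18.1 ± 1.52 CPM with NRG1 and 34.2 ± 2.64 CPM with PBS in High (SD, n = 3; log2 change -0.90, SE 0.130, edgeR adjusted p = 0.000672). In Med it had 21.0 ± 2.65 CPM with NRG1 and 49.5 ± 4.34 CPM with PBS (log2 change -1.22, SE 0.134, edgeR adjusted p = 0.000156). In Low the log2 change of -0.75 missed the threshold (edgeR adjusted p = 0.0732) and was past it with the replicate block (adjusted p = 0.00376) and without NRG1 replicate 1 (-0.90, adjusted p = 0.0454). In Neg it was -0.51 (edgeR adjusted p = 0.324), and -0.53 with the block (adjusted p = 0.00619). The kinase Pi4ka itself had log2 changes of 0.07 to 0.18 and the paralogue Efr3a of 0.01 to 0.34, and neither was called in any population. Fam126a, Fam126b and Ttc7b, the other subunits, were not called either, with the widest value at -0.91 (SE 0.318) for Fam126a in Neg. Pip5k1a (0.68, SE 0.179) and Pip5k1b (0.70, SE 0.122), kinases that make phosphatidylinositol 4,5-bisphosphate, were higher in Med (edgeR adjusted p = 0.0289 and 0.00403). With the block Pi4k2b (0.38, edgeR adjusted p = 0.0428) was also called higher in Med and Pitpna (-0.34, adjusted p = 0.0428) lower.

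Of 27 listed genes of the CUL4-DDB1 ligase, the scaffold Cul4a was lower with NRG1 in High (70.2 ± 2.33 CPM with NRG1 and 96.0 ± 14.7 CPM with PBS; log2 change -0.44, SE 0.122, edgeR adjusted p = 0.0381) and in Med (67.8 ± 5.73 CPM with NRG1 and 96.0 ± 1.95 CPM with PBS; -0.48, SE 0.113, adjusted p = 0.0171). Dtl, a substrate receptor that acts in S phase, was lower in High (33.8 ± 2.99 CPM with NRG1 and 62.9 ± 3.98 CPM with PBS; log2 change -0.88, SE 0.117, edgeR adjusted p = 0.000401) and in Med (-0.53, SE 0.131, adjusted p = 0.0226). The RING subunit Rbx1 was lower in High (-0.47, edgeR adjusted p = 0.0428) and the receptor Vprbp in Med (-0.52, adjusted p = 0.0171). The alternative scaffold Cul4b (0.47, edgeR adjusted p = 0.0336) and the receptor Crbn (0.65, adjusted p = 0.0306) were higher in Med. The adaptor Ddb1, at 145 to 184 CPM in the group means, had log2 changes of -0.23 to 0.00 and was not called. Dcaf12, the paralogue that gave Dcaf12l1 its name, had log2 changes of -0.03 to 0.21 and was not called, and Dcaf12l2 had 0 counts in all 24 libraries.

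Ectodysplasin signalling was sparsely measured upstream of Edaradd. Eda and Edar, the ligand and the receptor, had 81 and 86 counts in all over the 24 libraries and did not pass the filter on low counts. Eda2r, the receptor for the other ectodysplasin isoform, was higher in Med (4.50 ± 0.876 CPM with NRG1 and 2.37 ± 0.149 CPM with PBS; log2 change 0.94, SE 0.261, edgeR adjusted p = 0.0362). The kinase Ikbkb was higher in High (42.7 ± 4.2 CPM with NRG1 and 30.0 ± 0.335 CPM with PBS; log2 change 0.52, SE 0.120, edgeR adjusted p = 0.0144). With the block Tnfrsf19 (0.62, edgeR adjusted p = 0.0455) was also called higher in Med and Tnfaip3 (-0.58, adjusted p = 0.0388) lower. Traf6, which binds Edaradd, had log2 changes of -0.25 to 0.12 and was not called.

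Alkbh1 and Ttc7 in High and Med, Dtl in High and Pip5k1b in Med kept an adjusted p under the threshold without any 1 of their 6 libraries. The other calls made without the block did not. That of Cul4a ended in High without PBS replicate 1 or 2 or any 1 NRG1 replicate (edgeR adjusted p = 0.0791 to 0.154), and in Med without PBS replicate 2 or 3 or NRG1 replicate 2 (adjusted p = 0.0712 to 0.0797). In Med, that of Dtl ended without any 1 library other than NRG1 replicate 3 (edgeR adjusted p = 0.0517 to 0.103), as did those of Crbn (adjusted p = 0.0528 to 0.139) and Pip5k1a (adjusted p = 0.0573 to 0.121). That of Cul4b ended without PBS replicate 2 or 3 or NRG1 replicate 1 or 2 (edgeR adjusted p = 0.0564 to 0.152), that of Vprbp without PBS replicate 2 or 3 (adjusted p = 0.0598 and 0.0724), and that of Eda2r without any 1 library (adjusted p = 0.0611 to 0.129). In High, that of Rbx1 ended without any 1 library other than PBS replicate 3 (edgeR adjusted p = 0.0598 to 0.181), and that of Ikbkb without NRG1 replicate 2 (adjusted p = 0.0902). Cul4b was called higher in High without PBS replicate 3 (0.43, edgeR adjusted p = 0.0485).

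**Figure D4:**
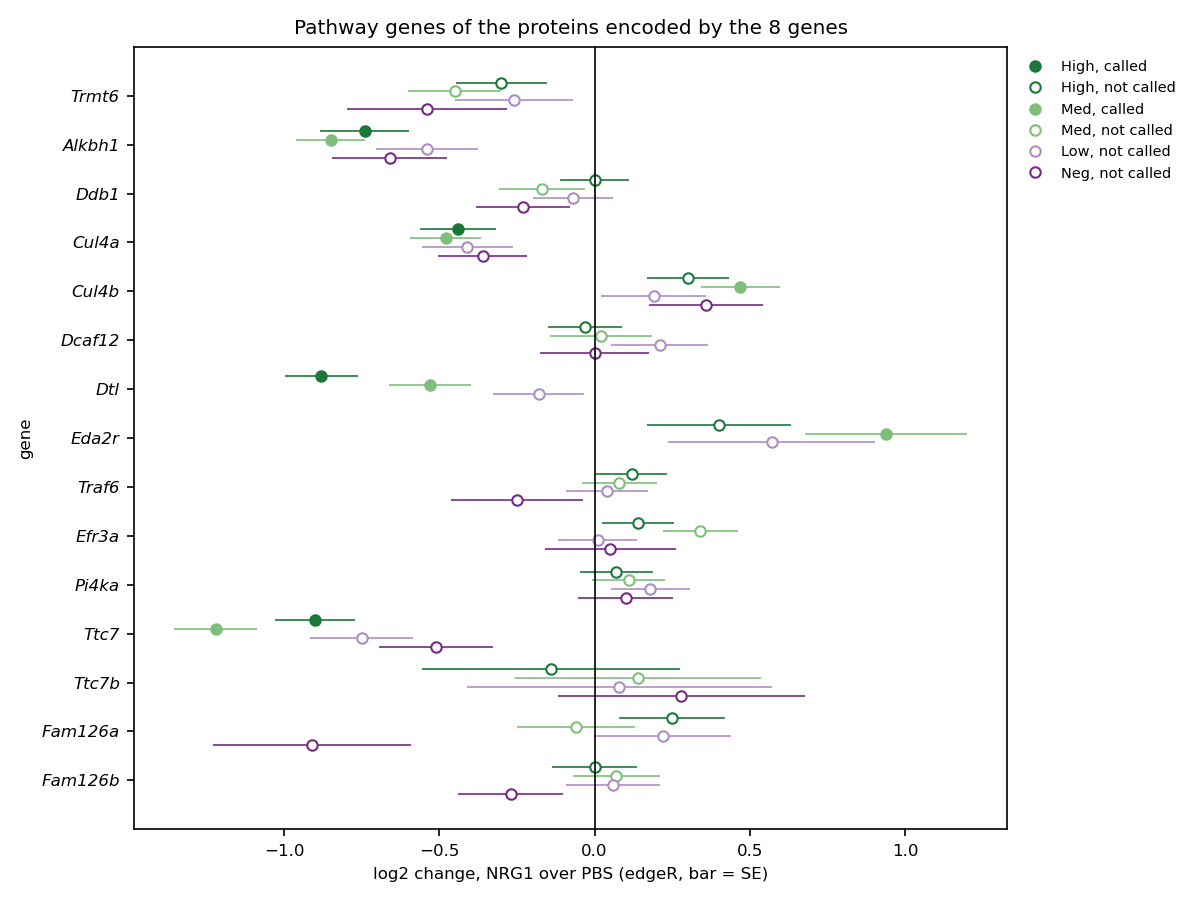
log2 change, NRG1 over PBS (horizontal axis), of pathway genes around Trmt61a, Dcaf12l1, Edaradd and Efr3b in each population (colours, High at the top of each row); bars are standard errors from edgeR on 3 NRG1 and 3 PBS libraries, filled points passed an adjusted p of 0.05 and open points did not. Alkbh1 and Ttc7 lie below 0 in all 4 populations and are filled in High and Med, while Ddb1, Pi4ka and Efr3a lie near 0.

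The genes beside the 8 were followed as the nearest tested gene on either side, 16 per population. In High, Low and Neg, 0 were called by edgeR, with 3, 3 and 3 at an unadjusted p under 0.05 and 2, 1 and 2 called by DESeq2. The shares of all genes at that unadjusted p or called by DESeq2 were not counted, so nothing is read from these numbers. In Med 2 were higher with NRG1 (3.76% of all genes were) and 0 lower: Gper1, which lies inside 3110082I17Rik on the opposite strand (log2 change 1.34, SE 0.305, edgeR adjusted p = 0.0146), and Stag2, 2510 kb from Dcaf12l1 (0.38, SE 0.111, adjusted p = 0.0458). The Gper1 call ended without PBS replicate 2 or 3 or NRG1 replicate 1 or 2 (edgeR adjusted p = 0.0527 to 0.0754), and the Stag2 call without any 1 of the 6 libraries (adjusted p = 0.0714 to 0.161). With the replicate block, 5 were called in Med (16.1% of all genes), 1 in Low (3.91%) and 3 in Neg (6.3%). Ckb, the creatine kinase gene 5.77 kb from Trmt61a, was lower in these 3 with the block (-0.40, edgeR adjusted p = 0.0265 in Med; -0.62, adjusted p = 0.00850 in Low; -0.45, adjusted p = 0.00974 in Neg). Ccnjl, directly upstream of 4933415A04Rik, had log2 changes of -0.68, -0.54, -0.89 and -1.17 in High, Med, Low and Neg. With the block it was called lower in Neg (-1.18, edgeR adjusted p = 0.00868) and in High (-0.70, adjusted p = 0.0279). Fabp6, an ileal bile acid binding protein gene on the other side of 4933415A04Rik, was lower with the block in Med (-1.29, edgeR adjusted p = 1.32e-05) and in High (-0.95, adjusted p = 0.00401). Bag5, the other neighbour of Trmt61a, was lower in Med with the block (-0.45, edgeR adjusted p = 0.0269). Zfand2a, next to 3110082I17Rik, was lower in Neg with it (-0.70, edgeR adjusted p = 0.0130). Prkag2, 0.341 kb from 2900005J15Rik on the opposite strand, had log2 changes of -0.37 to -0.14 and was not called.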

How the data were processed

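The authors deposited a table of raw counts of reads per gene symbol for the 24 libraries, as whole numbers without normalisation. The submitters' processing notes list STAR, featureCounts and the build GRCm38. Versions, annotation and strand setting are not given in the sources used here. Per the labels, each library used 15 ng of RNA and gave single-end reads 76 nt long. The 8 genes and all lists, tests and alternatives were chosen with earlier results of these data known.

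Tests used edgeR 4.0.16 in R 4.3.3 (robust quasi-likelihood fit, TMM scaling). Genes were kept by edgeR's filter at a minimum count of 10 and a total of 15. Fits were made within each population for NRG1 against PBS and over the 12 libraries of a treatment for populations. P-values were adjusted over all genes tested by the Benjamini-Hochberg method, with calls at 0.05. Alternatives used DESeq2 1.42.0, its size factors, no filter, no mitochondrial ribosomal RNA, 1 model for all libraries, the 15-week mice alone, a replicate block and leaving out each replicate. The edgeR step was tested on simulated data. Printed CPM are scaled over all 24 libraries, and log2 CPM use a prior count of 2. Floors (3 counts) cover counting error only.

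Populations come from the same mice, which pairs them by mouse number. Between NRG1 and PBS mice, same-numbered replicates share an age. Their deviations correlated at 0.11 to 0.29 in Med, Low and Neg, and 0.09 to 0.28 in High. The numbers were taken to pair samples in Med, Low and Neg and not in High. The ranges are close and differently numbered replicates were not compared, so these values do not settle that choice.

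Besides the 8 genes, the text names 16 direct partners, other listed genes called in 2 or more populations, nearest tested neighbours and the genes most like them in pattern. Rbx1, Vprbp, Crbn, Ikbkb, Pip5k1a, Pip5k1b, Trmt10a, Thumpd3, Trmt1l, Alkbh3, Pi4k2b, Pitpna, Tnfrsf19, Tnfaip3, Prr5, D17Wsu104e and F11r were named after their values were seen, to account for small counts. Coordinates and lengths come from GENCODE vM21, in which 39379 symbols were found directly, 939 by an older symbol, and 2962 not. Start windows come from RefSeq.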

Additional observations from a re-analysis of the deposited data

How the results depend on the processing

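The 8 genes were chosen for NRG1 libraries below PBS libraries, and leaving out libraries or adding the replicate block cannot break that order. Their 377 alternative log2 changes, whose direction the choice likewise fixes, ran from -3.21 to -0.58, and 6 moved by more than 1 SD. Without single replicates, the number of these genes called between populations in PBS mice was 0 to 1 for High and Med (1 with all libraries), 1 to 2 for Med and Low (2 with all), 5 to 6 for Low and Neg and 5 to 6 for High and Neg, and 5 to 6 for High and Neg in NRG1 mice.

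The pathway genes called moved more. In High, 6 were called, and 3 to 9 without single replicates (3 without NRG1 replicate 2 and 9 without PBS replicate 3). In Med, 10 were called, 17 with the replicate block, 5 in the 15-week mice alone and 3 to 9 without single replicates (3 without PBS replicate 2 or 3). In Low, 0 were called, 2 without the filter on low counts, 1 by DESeq2, 1 in 1 model for all libraries, 2 with the replicate block and 0 to 1 without single replicates. In Neg, 0 were called, 2 in 1 model for all libraries, 4 with the replicate block and 0 to 0 without single replicates. Of the neighbours, 2 were called, 8 without the filter, 8 by DESeq2, 11 with the replicate block and 0 to 2 without single replicates. The cause of these moves was not tested. In High, where the numbers were not taken to pair samples, the replicate block called 7 pathway genes and 2 neighbours, Ccnjl and Fabp6 (8.86% of all genes were called with it). Of 1585 alternative values for single genes with a test, 1486 kept their side of the threshold, 76 lost a call, 23 gained one and 0 turned round. In Med, Low and Neg the replicate block changed no call of the 8 genes, the pathway genes or the neighbours named in the text other than those given beside the results.

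With 3 mice per treatment, and 1 of them 11 weeks old, the spread is poorly known. Dcaf12l1, Edaradd and 3110082I17Rik rest on few reads in some gates (0 in NRG1 and 5 in PBS libraries for Dcaf12l1 in Neg). Treatment and any step done per mouse cannot be told apart.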
